A study of Mus musculus with 12 samples.

Results

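Chemokine receptors are G protein-coupled receptors that steer leukocytes towards cells that secrete chemokines. Which receptors a cell carries sets where it settles, such as the B cell follicle, the T cell zone or the small intestinal mucosa. In the healthy brain parenchyma CX3CR1 is the receptor typical of microglia, and its ligand CX3CL1 is made largely by neurons. The gut and its Peyer's patches hold lymphocytes and mononuclear phagocytes that carry several receptors of the family.

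The genes described here are 9 chemokine receptors, *Cx3cr1*, *Ccr1*, *Ccr2*, *Ccr6*, *Ccr7*, *Cxcr5*, *Cxcr4*, *Ccr9* and *Ccr10*. They were chosen with earlier results of these data known and matched by exact gene symbol. Each of the 9 had 1 transcript cluster of its own among 21218 single-symbol clusters for 18820 genes. A transcript cluster is the set of array probes assigned to 1 gene, and its value is a log2 signal.

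Total RNA came from 4 groups of 3 arrays each. They are hippocampus from FIRE -/- mice, hippocampus from FIRE +/+ mice, ileum from FIRE -/- mice and ileum from FIRE +/+ mice. FIRE is an enhancer in the second intron of *Csf1r*, which encodes the receptor for the macrophage growth factor CSF1. The deletion is a germline one carried by every cell, and the line descends from 1 male founder. All 12 arrays came from mice aged 6 weeks of strain C57BL/6J/CBA that had been perfused with saline. The ileum samples are labelled as Peyer's patch with ileum, but the B cell marker *Ms4a1* was near its hippocampus signal (1.85 to 2.26) on 4 of the 6 arrays, at 2.14 to 2.68. It is not stated if a mouse gave 1 tissue or both, nor that each array is a separate mouse, so the p-values measure the spread between these arrays.

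*Csf1r* checks the genotype labels. Its signal was 3.58, 3.69 and 3.65 in FIRE -/- hippocampus, against 8.34, 8.31 and 8.15 in FIRE +/+ hippocampus, and the groups were far apart. In the ileum it was 6.44, 7.53 and 6.86 in FIRE -/- mice, against 7.41, 8.17 and 7.39 in FIRE +/+ mice, and the arrays overlapped, so there it does not tell the labels apart. The mean of 8 neuron markers lay between 10.57 and 10.77 on the hippocampus arrays and between 4.68 and 5.09 on the ileum arrays, and that of 8 enterocyte markers lay between 3.77 and 4.51 on the hippocampus arrays and between 10.78 and 11.89 on the ileum arrays. The hippocampus pieces differed in choroid plexus markers, whose mean over 5 genes lay between 8.10 and 9.17 in FIRE -/- and between 5.84 and 9.12 in FIRE +/+ mice. Hippocampus FIRE -/- replicate 2 is labelled female but read 2.44 for *Xist* and 6.18 for *Eif2s3y*, levels of the arrays labelled male, so the differences of the 9 receptors that rest on it are also given without it. The code in each sample's name ends in 07 for hippocampus FIRE -/- replicate 3 and for the 3 FIRE +/+ hippocampus arrays, and in 09 for the other 8. What this number stands for is not stated.

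Of the 9 receptors, 6 matched a promoter window in the RefSeq table for GRCm38.p6, with 7 windows of 300 bases, each running from 250 bases before a start site to 50 after it. The windows of *Cx3cr1*, the receptor whose signal fell with the deletion, and of *Ccr6* and *Cxcr4*, which were high on the same lymphoid-rich ileum arrays, are shown. Capitals mark GAGGAA, the core bound by PU.1 and related Ets factors, and the octamer ATGCAAAT, bound by Oct-1 and Oct-2, each searched on both strands. The windows lie at chr9:120068247-120068546 (minus strand) for *Cx3cr1*, chr17:8235793-8236092 (plus strand) for the first of 2 *Ccr6* start sites and chr1:128592250-128592549 (minus strand) for *Cxcr4*.
*Cx3cr1*: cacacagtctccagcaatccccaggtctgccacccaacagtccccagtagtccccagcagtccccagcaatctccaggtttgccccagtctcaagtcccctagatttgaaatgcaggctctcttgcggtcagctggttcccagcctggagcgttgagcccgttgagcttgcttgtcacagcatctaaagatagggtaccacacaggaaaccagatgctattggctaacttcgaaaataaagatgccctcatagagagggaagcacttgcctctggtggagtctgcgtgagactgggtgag
*Ccr6*: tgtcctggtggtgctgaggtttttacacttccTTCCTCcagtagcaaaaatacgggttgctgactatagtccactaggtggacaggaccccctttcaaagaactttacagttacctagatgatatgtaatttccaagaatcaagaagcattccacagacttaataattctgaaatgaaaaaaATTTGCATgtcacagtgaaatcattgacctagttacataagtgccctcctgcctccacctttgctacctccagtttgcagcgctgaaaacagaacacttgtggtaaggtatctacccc
*Cxcr4*: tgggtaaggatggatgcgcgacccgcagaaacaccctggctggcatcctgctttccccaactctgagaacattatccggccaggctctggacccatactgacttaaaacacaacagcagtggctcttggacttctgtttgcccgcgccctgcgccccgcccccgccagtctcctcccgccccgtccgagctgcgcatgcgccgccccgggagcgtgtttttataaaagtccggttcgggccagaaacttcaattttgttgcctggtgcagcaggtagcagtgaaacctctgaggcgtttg
GAGGAA was found in 2 of the 7 windows, those of *Ccr1* (129 bases before its start site) and of the first *Ccr6* start site (218 bases before it, reverse strand), and in 28.3% of all 32851 windows of the table. The octamer was found in 1 of the 7, 68 bases before the first *Ccr6* start site on the reverse strand, and in 1.74% of all windows. The letters are not in the *Cx3cr1* and *Cxcr4* windows, and no motif overlapped another.

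*Cx3cr1*, which encodes the receptor for CX3CL1 (fractalkine), was the 1 receptor of 9 that fell in the hippocampus with the FIRE deletion. Its signal was 4.32, 3.77 and 3.91 in FIRE -/- hippocampus, against 7.46, 7.51 and 7.48 in FIRE +/+ hippocampus. The groups lay far apart, with means of 4.0 ± 0.28 in FIRE -/- and 7.48 ± 0.02 in FIRE +/+ hippocampus (SD, n = 3 each). The log2 difference was -3.48 (standard error 0.14, 95% confidence interval -3.81 to -3.15, limma adjusted p = 2.94e-05), which is 11.2-fold lower. Of all 21218 clusters, 95 fell by this test (0.448%), and 0 rose (0%).

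Without hippocampus FIRE -/- replicate 2 the *Cx3cr1* difference was -3.37 (limma adjusted p = 0.00028), and 72 clusters passed. All 3 FIRE +/+ hippocampus arrays carry 07. With the code number as a block, the genotype difference thus rests on 1 FIRE -/- array. So does a fit of the 4 arrays with 07, where that array is assumed to vary like the 3 FIRE +/+ arrays. Both fits gave -3.57 for *Cx3cr1* and are not separate checks. Because RNA came from whole tissue, fewer cells of a type and less RNA per cell cannot be told apart. The microglia list moved with *Cx3cr1*: 11 of its 14 measured genes fell, and the mean over the 14 lay between 4.12 and 4.39 in FIRE -/- and between 6.54 and 6.84 in FIRE +/+ hippocampus. *P2ry12*, a purinergic receptor of microglia, averaged 3.57 ± 0.06 in FIRE -/- and 5.60 ± 0.25 in FIRE +/+ hippocampus (SD, n = 3 each). The part of microglia number in the *Cx3cr1* difference was not tested. Of 10 macrophage markers 4 fell, and the mean of the 10 lay between 4.08 and 4.26 in FIRE -/- and between 4.82 and 4.95 in FIRE +/+ hippocampus. The median difference over the 10 was -0.44, against 0.01 over all clusters, but not every gene was lower. *Itgam* averaged 2.83 in FIRE -/- and 5.56 in FIRE +/+ hippocampus, *Adgre1* 3.46 and 5.26, *Cd68* 5.69 and 6.75, and *Fcgr1* 3.48 and 4.66. Lower by less were *Cd14* (2.57 and 3.11), *Lyz2* (4.97 and 5.32) and *Mertk* (7.43 and 7.72). *Mrc1* averaged 4.14 in FIRE -/- and 3.75 in FIRE +/+, *Siglec1* 3.90 and 3.79, and *Cd163* 3.05 and 3.09. The paper associates *Mrc1*, *Siglec1* and *Cd163* with brain macrophages that these mice retain. Their hippocampus means lay below 4.39, the median of all values. In the RefSeq annotation *Cx3cr1* shares sequence with the long noncoding RNA gene *Gm33858*, and whether probes of the cluster lie in the shared stretch is not known here.

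The other 8 receptors did not pass the test in the hippocampus. Among them *Ccr9*, the receptor for CCL25 on lymphocytes that settle in the small intestine, read 3.36, 3.25 and 3.43 in FIRE -/- and 3.06, 2.82 and 2.97 in FIRE +/+ hippocampus. These arrays did not overlap, but the difference of 0.40 (95% confidence interval 0.17 to 0.63) did not pass after adjustment (limma adjusted p = 0.43). At an unadjusted p under 0.05, 2 of the 9 receptors were counted, against 625 lower and 379 higher clusters among all 21218.

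For the receptors of inflammatory recruitment, the hippocampus values overlapped between genotypes. *Ccr1*, a receptor of monocytes and neutrophils for CCL3 and CCL5 among others, differed by 0.07 (95% confidence interval -0.13 to 0.27) and lay between 2.03 and 2.09 in FIRE -/- and between 1.90 and 2.08 in FIRE +/+ mice. *Ccr2*, which lets monocytes leave the bone marrow towards CCL2, lay between 1.73 and 1.86 in FIRE -/- and between 1.71 and 2.11 in FIRE +/+ mice. Its difference was -0.07 (95% confidence interval -0.35 to 0.20). Its signals lay between the percentiles 2.1 and 6.0 of all clusters on their arrays. The interval is thus one of array signals, and a fall in RNA could go unseen at this level. The files used here give no detection call, so signals this low cannot be called present or absent.

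For the receptors of lymphoid homing, the intervals in the hippocampus also held 0. *Ccr6*, the receptor for CCL20, differed by -0.02 (95% confidence interval -0.34 to 0.29). *Ccr7*, which brings T cells and dendritic cells to CCL19 and CCL21, differed by -0.03 (95% confidence interval -0.40 to 0.34). The arrays of both genes overlapped between the genotypes. *Cxcr5*, the B cell receptor for CXCL13, differed by 0.16 (95% confidence interval -0.12 to 0.43), and *Cxcr4*, the receptor for CXCL12, by 0.18 (95% confidence interval -0.11 to 0.48). *Ccr10*, a receptor for CCL27 and CCL28 on plasma cells and skin T cells, differed by -0.14 (95% confidence interval -0.36 to 0.09). The median difference over the 9 receptors was -0.02, against 0.01 over all clusters. Without hippocampus FIRE -/- replicate 2 the differences of the 8 receptors other than *Cx3cr1* ran from -0.19 (*Ccr10*) to 0.45 (*Ccr9*), with *Cxcr5* at 0.03, and none was called.

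**Figure D1:**
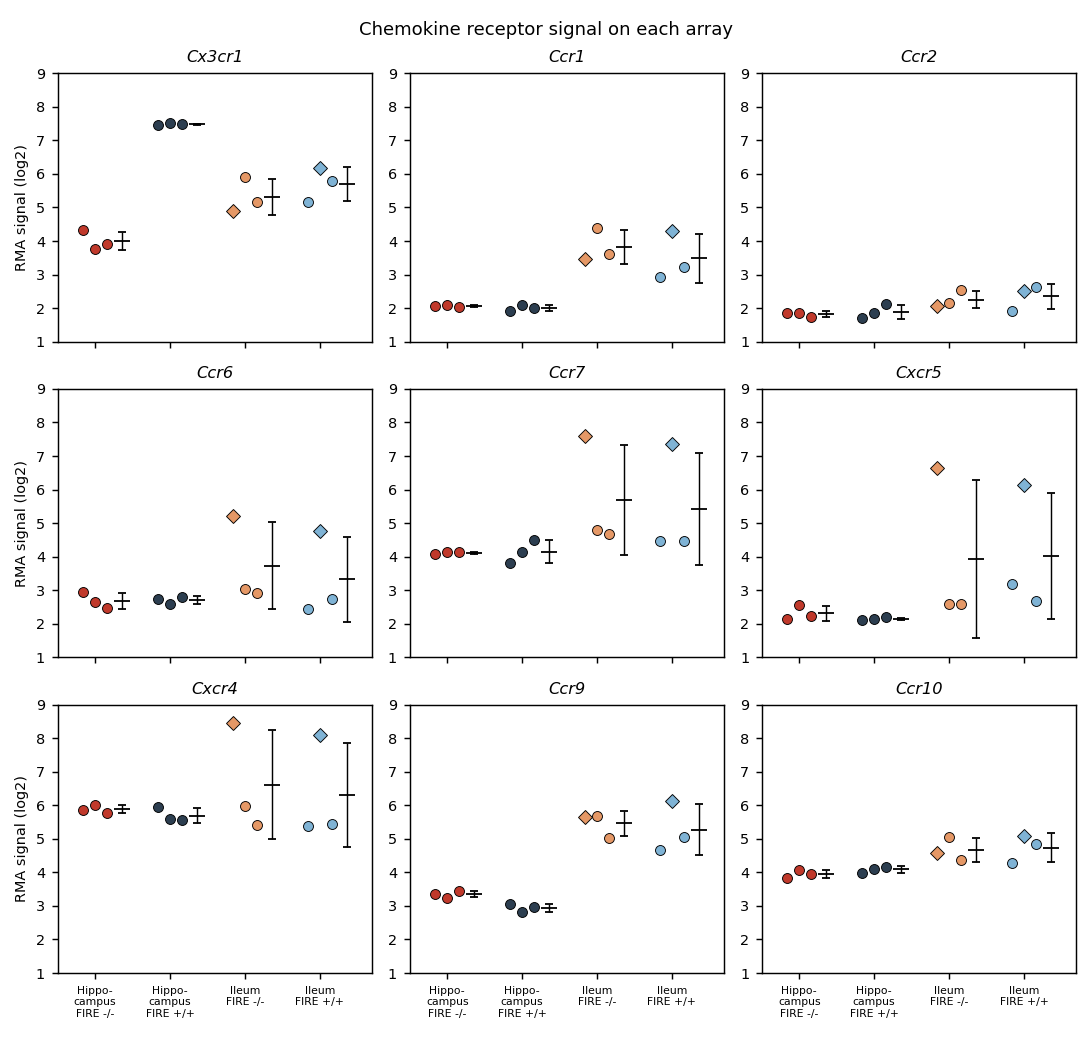
RMA signal (log2) of each receptor on the 12 arrays, in FIRE -/- and FIRE +/+ hippocampus and in FIRE -/- and FIRE +/+ ileum. Points are arrays, diamonds the 2 ileum arrays with *Ms4a1* above 6, and the bars to the right of each group give mean ± SD (n = 3). *Cx3cr1* averaged 4.0 in FIRE -/- and 7.48 in FIRE +/+ hippocampus, and the diamonds lie above the other ileum arrays for *Ccr6*, *Ccr7*, *Cxcr5* and *Cxcr4*.

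In the ileum none of the 9 receptors passed the test between genotypes. By limma 0 of the 21218 clusters fell (0%) and 0 rose (0%), and 0 did so when each cluster was tested without moderation. At an unadjusted p under 0.05, 0 of the 9 receptors were counted, against 327 lower and 393 higher clusters of the 21218. *Cx3cr1* was at 4.89, 5.92 and 5.16 in FIRE -/- ileum, against 5.16, 6.17 and 5.78 in FIRE +/+ ileum. The arrays overlapped, and the difference was -0.38 (standard error 0.33, 95% confidence interval -1.17 to 0.41, limma adjusted p = 0.999). The bound of this interval nearest to the hippocampus estimate of -3.48 is -1.17. Without both lymphoid-rich arrays described below, the ileum difference of *Cx3cr1* turned to 0.07. Those arrays held the lowest FIRE -/- and the highest FIRE +/+ value, so the gap had to narrow.

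The remaining ileum differences were small against their errors, and the errors were unequal. For *Ccr1*, *Ccr2*, *Ccr9* and *Ccr10* the standard errors ran from 0.22 to 0.39. *Ccr1* differed by 0.34 (95% confidence interval -0.59 to 1.26) and *Ccr9* by 0.18 (95% confidence interval -0.71 to 1.08). *Ccr2* differed by -0.10 (95% confidence interval -0.62 to 0.42) and *Ccr10* by -0.07 (95% confidence interval -0.67 to 0.54). For *Ccr6*, *Ccr7*, *Cxcr4* and *Cxcr5* the standard errors ran from 0.80 to 1.31, since in each genotype 1 array stood apart. The interval of *Cxcr5* reached from -3.16 to 3.03, so these arrays could not show even a large genotype difference of this gene. The median over the 9 receptors was 0.18, against -0.01 over all clusters.

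**Figure D2:**
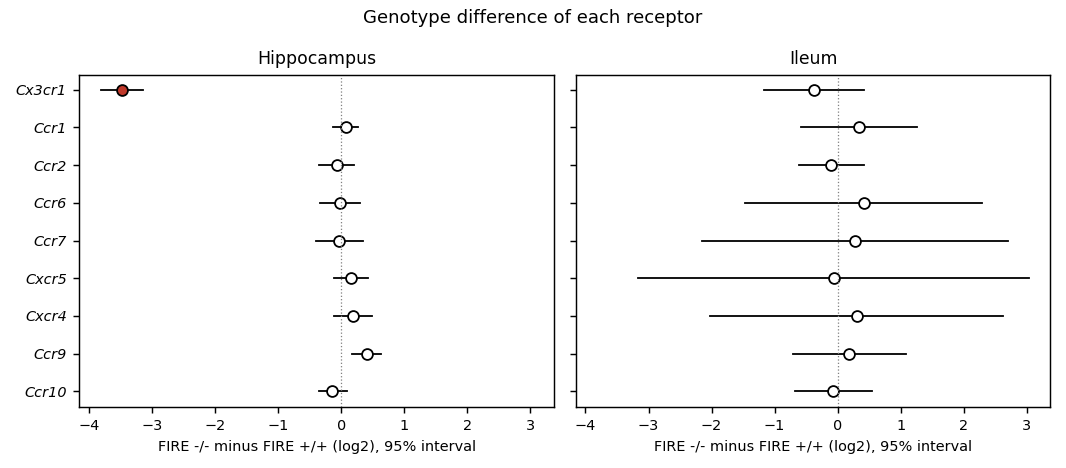
FIRE -/- minus FIRE +/+ difference in log2 signal of each receptor in the hippocampus (left) and the ileum (right), with 95% confidence intervals from limma (n = 3 arrays per group). Filled points passed an adjusted p of 0.05, which *Cx3cr1* did in the hippocampus at -3.48, and the intervals are wide for *Ccr6*, *Ccr7*, *Cxcr5* and *Cxcr4* in the ileum.

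The genotype effect on *Cx3cr1* was set against itself in both tissues in 1 fit of the 12 arrays. The effect in the hippocampus was lower than that in the ileum by -3.10 on the log2 scale (standard error 0.40, 95% confidence interval -3.97 to -2.23, limma adjusted p = 0.0107). Of all clusters 19 were lower in this sense (0.0895%) and 0 were higher (0%), and *Cx3cr1* was the 1 receptor of 9 among them. The call was lost without hippocampus FIRE -/- replicate 2, the array with the doubtful label, at -2.99 (limma adjusted p = 0.0503), where 12 clusters passed, and without moderation, at an adjusted p of 0.2. Without both lymphoid-rich ileum arrays the difference was -3.55, given without a test. Those arrays held the lowest FIRE -/- (4.89) and the highest FIRE +/+ (6.17) ileum value of *Cx3cr1*. Leaving them out had to narrow the ileum difference, so this value is not a check of the call. The estimates for the other 8 receptors ran from -0.43 to 0.22, each with an adjusted p of 1.

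The levels of *Cx3cr1* fell into a clear order. FIRE +/+ hippocampus was the highest group, FIRE +/+ ileum (5.70 ± 0.51) and FIRE -/- ileum (5.32 ± 0.54; SD, n = 3 each) followed with overlapping arrays, and FIRE -/- hippocampus was the lowest. The tissue difference therefore had opposite signs in the genotypes. In FIRE -/- mice *Cx3cr1* was lower in the hippocampus than in the ileum by -1.32 (95% confidence interval -1.93 to -0.71, limma adjusted p = 0.00126). In FIRE +/+ mice it was higher in the hippocampus by 1.78 (95% confidence interval 1.17 to 2.39, limma adjusted p = 0.000124).

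Between tissues, 3 more receptors were called, all lower in the hippocampus than in the ileum in both genotypes. They stand against a large background: in FIRE -/- mice 31.8% of all clusters were lower and 29.5% higher in the hippocampus, and in FIRE +/+ mice 31.1% were lower and 28.7% higher. Of the 9 receptors, 4 were lower and 0 higher in FIRE -/- mice, and 3 were lower and 1 higher in FIRE +/+ mice. The FIRE +/+ hippocampus arrays all end in 07 and the FIRE +/+ ileum arrays in 09, so code number and tissue cannot be told apart in that comparison. In FIRE -/- mice, fitted on arrays with 09 only, the same 4 receptors remained called. Without hippocampus FIRE -/- replicate 2 they were called too, with *Cx3cr1* at -1.21 (limma adjusted p = 0.00716), *Ccr9* at -2.06 (limma adjusted p = 0.00039), *Ccr1* at -1.77 (limma adjusted p = 0.00139) and *Ccr10* at -0.77 (limma adjusted p = 0.0176). The other 5 were not, and ran from -1.75 (*Cxcr5*) to -0.46 (*Ccr2*).

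*Ccr9* had the largest tissue difference of the 9 in both genotypes. It read 3.36, 3.25 and 3.43 in FIRE -/- hippocampus, against 5.66, 5.68 and 5.03 in FIRE -/- ileum, and the difference was -2.11 (95% confidence interval -2.77 to -1.45, limma adjusted p = 5.28e-05). In FIRE +/+ mice it read 3.06, 2.82 and 2.97 in the hippocampus, against 4.66, 6.12 and 5.04 in the ileum, and the difference was -2.33 (95% confidence interval -2.98 to -1.67, limma adjusted p = 2.32e-05). No hippocampus array reached any ileum array. *Ccl25*, which encodes the CCR9 ligand secreted by small intestinal epithelium, ran the same way with -5.73 in FIRE -/- and -5.92 in FIRE +/+ mice, and its ileum signal lay between 11.38 and 11.61 on all 6 arrays. In the annotation *Ccr9* shares sequence with the long noncoding RNA gene *Gm17021*, whose part in the signal is not known here.

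*Ccr1* was at 2.07, 2.09 and 2.03 in FIRE -/- hippocampus, against 3.45, 4.39 and 3.62 in FIRE -/- ileum. The difference was -1.76 (95% confidence interval -2.44 to -1.09, limma adjusted p = 0.000292). In FIRE +/+ mice it was at 1.90, 2.08 and 2.0 in the hippocampus, against 2.92, 4.29 and 3.24 in the ileum, with a difference of -1.49 (95% confidence interval -2.17 to -0.82, limma adjusted p = 0.00107). The hippocampus arrays were tightly grouped, and the ileum arrays ranged from 2.92 to 4.39. The hippocampus signals lay between the percentiles 4.6 and 7.2 of all clusters on their arrays, too low to be called present or absent, so both differences are between array signals and the difference in RNA may be larger. Among its ligands, *Ccl5* was lower in the hippocampus in both genotypes (-1.93 in FIRE -/- and -1.74 in FIRE +/+ mice), as were *Ccl6* (-6.68 in FIRE -/- and -5.93 in FIRE +/+ mice) and *Ccl9* (-3.84 in FIRE -/- and -2.95 in FIRE +/+ mice). *Ccl3* was lower in FIRE -/- mice (-1.10, limma adjusted p = 0.0214) with 0.01 in FIRE +/+ mice (limma adjusted p = 0.99). Its difference of genotype effects, hippocampus minus ileum, was -1.11 (95% confidence interval -2.25 to 0.04) and did not pass.

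*Ccr10* was at 3.83, 4.06 and 3.96 in FIRE -/- hippocampus, against 4.58, 5.05 and 4.38 in FIRE -/- ileum. The difference was -0.72 (95% confidence interval -1.17 to -0.27, limma adjusted p = 0.00941). In FIRE +/+ mice it was at 3.98, 4.11 and 4.17 in the hippocampus, against 4.27, 5.09 and 4.85 in the ileum, with a difference of -0.65 (95% confidence interval -1.10 to -0.20, limma adjusted p = 0.0165). The FIRE +/+ call was lost without ileum FIRE +/+ replicate 2 (-0.47, limma adjusted p = 0.0733), ileum FIRE +/+ replicate 3 (-0.59, limma adjusted p = 0.0539) or hippocampus FIRE +/+ replicate 1 (-0.60, limma adjusted p = 0.0546). *Ccl28*, the mucosal ligand of CCR10, was lower in the hippocampus by -2.65 in FIRE -/- and -3.08 in FIRE +/+ mice. *Ccr10* overlaps *Cntnap1*, a gene active in neurons, in the annotation, so its hippocampus signal is uncertain.

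*Ccr2* came close to the threshold without passing it. Its hippocampus signals lay between the percentiles 2.1 and 6.0 of all clusters, and its ileum signals between 3.7 and 14.7. Signals this low cannot be called present or absent. Its differences were -0.43 in FIRE -/- mice (limma adjusted p = 0.0649) and -0.46 in FIRE +/+ mice (limma adjusted p = 0.052), and its arrays overlapped between the tissues in FIRE +/+ but not in FIRE -/- mice. Of its ligands, *Ccl2* differed by -0.32 in FIRE -/- mice (limma adjusted p = 0.138) and was lower by -0.48 in FIRE +/+ mice (limma adjusted p = 0.0342). The *Ccl2* difference of genotype effects, 0.16 (95% confidence interval -0.39 to 0.70), did not pass. *Cx3cl1*, the ligand of CX3CR1, was higher in the hippocampus in both genotypes, by 1.60 in FIRE -/- and 1.49 in FIRE +/+ mice. Between genotypes *Cx3cl1* did not pass in the hippocampus, with 10.34 ± 0.06 in FIRE -/- and 10.17 ± 0.12 in FIRE +/+ mice (SD, n = 3 each) and a difference of 0.16 (95% confidence interval -0.06 to 0.39).

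The 4 receptors of lymphoid homing did not pass between tissues in either genotype. *Cxcr5* had the widest interval, -3.88 to 0.62 in FIRE -/- and -4.10 to 0.40 in FIRE +/+ mice. *Ccr7* differed by -1.57 in FIRE -/- and -1.27 in FIRE +/+ mice, and *Ccr6* by -1.05 in FIRE -/- and -0.62 in FIRE +/+ mice. *Cxcr4* differed by -0.73 in FIRE -/- and -0.61 in FIRE +/+ mice. Of their ligands, *Cxcl13* was lower in the hippocampus by -4.81 in FIRE -/- and -4.20 in FIRE +/+ mice and *Ccl20* by -2.01 in FIRE -/- and -2.71 in FIRE +/+ mice, while *Ccl19* and *Cxcl12* did not pass.

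For the 8 receptors other than *Cx3cr1*, both ileum means stood above both hippocampus means. The ileum genotypes overlapped for each of the 8. The lower ileum group did not overlap the higher hippocampus group for *Ccr1*, *Ccr9*, *Cxcr5* and *Ccr10* and overlapped it for *Ccr2*, *Ccr6*, *Ccr7* and *Cxcr4*. For *Cxcr5* the groups nearly met, with 2.58 on the lowest FIRE -/- ileum array and 2.55 on the highest FIRE -/- hippocampus array. Of the hippocampus genotypes, only those of *Ccr9* did not overlap among these 8. The share of all clusters without such overlaps was not counted, so these are descriptions only.

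**Figure D3:**
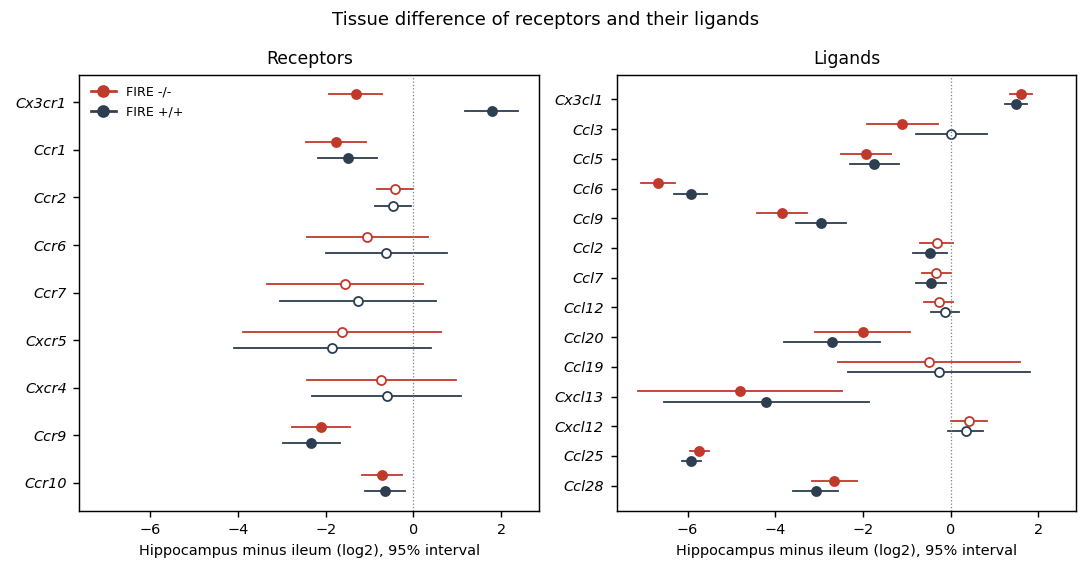
Hippocampus minus ileum difference in log2 signal of the 9 receptors (left) and of their 14 measured ligands (right), in FIRE -/- and FIRE +/+ mice, with 95% confidence intervals from limma on all 12 arrays. Filled points passed an adjusted p of 0.05, and *Cx3cr1* is at -1.32 in FIRE -/- and at 1.78 in FIRE +/+ mice while its ligand *Cx3cl1* is above 0 in both.

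*Ms4a1*, which encodes the B cell protein CD20, separated the ileum arrays. It read 7.68, 2.32 and 2.14 in FIRE -/- ileum, against 2.68, 7.66 and 2.50 in FIRE +/+ ileum. FIRE -/- replicate 1 and FIRE +/+ replicate 2 thus lay above 6, 1 array of each genotype, and the other 4 lay between 2.14 and 2.68. Without *Ms4a1*, which picked the arrays, the mean of the 9 other B cell markers was 7.51 on FIRE -/- replicate 1 and 7.41 on FIRE +/+ replicate 2, and between 3.47 and 4.02 on the other 4 arrays. All 9 lay above the other arrays on both. Means of 8 T cell markers were 5.71 and 5.66 there, with 4.33 to 4.92 on the others, and all 8 lay above. Of the 6 lymphoid stroma markers, the ligands *Cxcl13* and *Ccl19* are given below, and the mean of the other 4 was 6.16 and 6.65, with 5.57 to 6.0 on the others. Among these 4 *Madcam1* (gap 1.35) and *Tnfsf11* (gap 0.27) lay above, while *Ltbr* (gap -0.23) and *Pdpn* (gap -0.93) overlapped, where the gap is the lower of both arrays minus the highest of the other 4. The part of lymphoid content in the receptor values was not tested. Since both arrays were picked by a measured value, the receptors are given array by array, with no mean and no test.

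Of the 9 receptors, 4 lay above all 4 other arrays on both lymphoid-rich arrays, as did 1418 of the 21218 clusters (6.68%). *Cxcr5*, which leads B cells into follicles, read 6.65 on FIRE -/- replicate 1, against 2.60 and 2.58 on the other FIRE -/- arrays. In FIRE +/+ ileum it read 6.15 on replicate 2, against 3.19 and 2.68 on the others. The lower rich array stood 2.96 above the highest of the rest, the widest gap among the receptors. *Cxcr5* overlaps *Bcl9l* in the annotation, so its signal is uncertain to that extent.

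*Ccr7*, the receptor of the T cell zone, read 7.60 on FIRE -/- replicate 1, against 4.79 and 4.68, and 7.35 on FIRE +/+ replicate 2, against 4.46 and 4.46, a gap of 2.56. *Cxcr4*, carried by most leukocytes, read 8.46 on FIRE -/- replicate 1, against 5.97 and 5.40, and 8.10 on FIRE +/+ replicate 2, against 5.38 and 5.44, a gap of 2.12. On the 4 poorer ileum arrays *Cxcr4* lay between 5.38 and 5.97, a range that overlaps its hippocampus values of 5.56 to 6.00. *Ccr6*, carried by B cells and by cells of the patch's dome, read 5.22 on FIRE -/- replicate 1, against 3.03 and 2.93, and 4.78 on FIRE +/+ replicate 2, against 2.45 and 2.73, a gap of 1.75. Its annotation overlaps the long noncoding RNA gene *Gm33799*. The *Ccr6* and *Cxcr4* promoter windows printed above belong to members of this set.

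The other 5 receptors overlapped between the rich and the poor arrays. *Cx3cr1* was at 4.89 on FIRE -/- replicate 1, the lowest of the 6 ileum arrays, and at 6.17 on FIRE +/+ replicate 2, the highest. *Ccr9* was at 5.66 and 6.12 on the rich arrays, against 4.66 to 5.68 on the others, a gap of -0.02. *Ccr1*, *Ccr2* and *Ccr10* had a rich array within the range of the poor ones. Among the ligands, *Cxcl13* (gap 2.34) and *Ccl19* (gap 2.67), which stromal cells of follicles and T cell zones make, also lay above on both rich arrays, as did *Ccl7* by 0.08. Of the 13 other measured chemokine, atypical and chemokine-like receptors *Ccr4* (gap 0.09) and *Xcr1* (gap 0.25) did so.

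**Figure D4:**
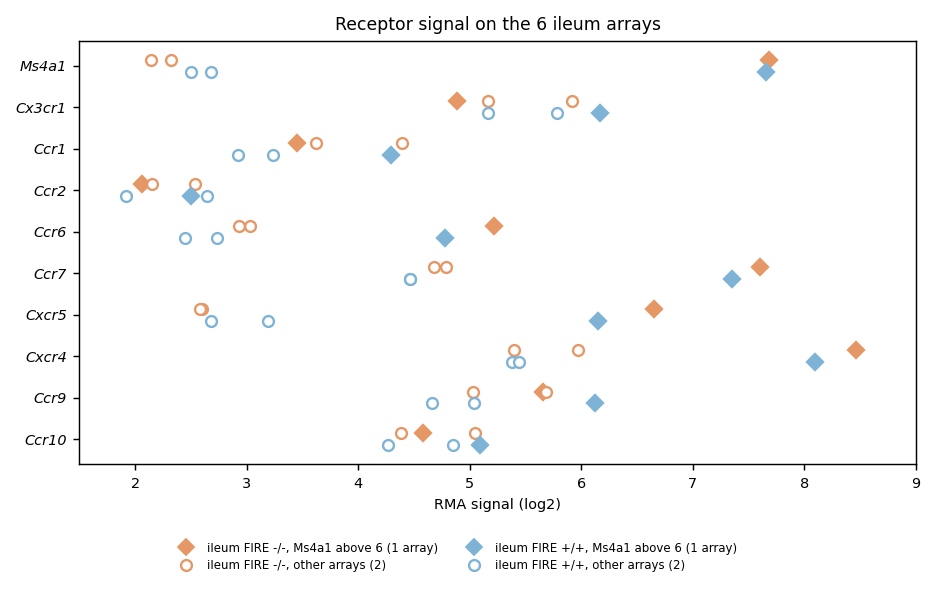
RMA signal (log2) of *Ms4a1* and the 9 receptors on the 6 ileum arrays, FIRE -/- (orange, upper row of each gene) and FIRE +/+ (blue, lower row). Filled diamonds are the arrays with *Ms4a1* above 6, 1 per genotype, and open circles the other 4, and the diamonds stand apart for *Ccr6*, *Ccr7*, *Cxcr5* and *Cxcr4* by 1.75 to 2.96.

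With both lymphoid-rich arrays left out, the tissue comparison moved, and each ileum group then had 2 arrays. The arrays left out were picked by *Ms4a1* and had the highest ileum values of *Ccr6*, *Ccr7*, *Cxcr4* and *Cxcr5*. For these genes the differences are therefore given without a test. *Ccr7* was at -0.62 in FIRE -/- and -0.31 in FIRE +/+ mice, and *Cxcr5* at -0.28 in FIRE -/- and -0.78 in FIRE +/+ mice. The *Cxcr4* difference turned positive, at 0.19 in FIRE -/- and 0.28 in FIRE +/+ mice. *Ccr2* was lower in the hippocampus in FIRE -/- mice (-0.53, limma adjusted p = 0.0497). That call rests on low signals and 2 ileum arrays, and with all arrays the limma adjusted p was 0.0649. *Cx3cr1*, *Ccr1* and *Ccr9* kept their calls and directions in both genotypes. *Ccr10* lost its call in FIRE +/+ mice (-0.47, limma adjusted p = 0.0801).

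The rest of the family, with the chemokine-like receptor gene *Cmklr1*, was counted from lists that were also chosen with earlier results known. Of 15 other chemokine, atypical and chemokine-like receptors 13 were measured, and none passed between genotypes in either tissue. At an unadjusted p under 0.05, 1 was counted in the hippocampus, *Cmklr1* (-0.58, limma adjusted p = 0.189), and 1 in the ileum, *Cxcr2* (0.37, limma adjusted p = 0.999). Of all 21218 clusters, 625 lower and 379 higher were so counted in the hippocampus, and 327 lower and 393 higher in the ileum. Between tissues 8 were lower and 3 higher in FIRE -/- hippocampus, and 6 were lower and 2 higher in FIRE +/+ hippocampus. Of all clusters 31.8% were lower and 29.5% higher in FIRE -/- hippocampus, and 31.1% lower and 28.7% higher in FIRE +/+ hippocampus. *Ackr1*, an atypical receptor of venous endothelium and red cells that binds chemokines without signalling, was higher in the hippocampus by 2.35 in FIRE -/- and 2.53 in FIRE +/+ mice. *Cxcr6*, a receptor of tissue T cells, was lower by -1.84 in FIRE -/- and -1.55 in FIRE +/+ mice. The median genotype difference of the 13 was -0.10 in the hippocampus, against 0.01 over all clusters, and 0.06 in the ileum, against -0.01.

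Of 18 ligands of the 9 receptors 14 were measured, and none passed between genotypes in either tissue. In the hippocampus 3 were counted at an unadjusted p under 0.05, *Ccl6* (-0.75, limma adjusted p = 0.302), *Ccl9* (-0.84, limma adjusted p = 0.563) and *Ccl3* (-0.88, limma adjusted p = 0.774), and in the ileum 0. The counts over all 21218 clusters are those given for the other receptors. Between tissues 8 were lower and 1 higher in FIRE -/- hippocampus, against 31.8% lower and 29.5% higher among all clusters. In FIRE +/+ hippocampus 9 were lower and 1 higher, against 31.1% lower and 28.7% higher. The median difference of the ligands between genotypes was -0.06 in the hippocampus, against 0.01 over all clusters, and 0.02 in the ileum, against -0.01.

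For receptors whose 12 values spanned over 2 log2 units, the 3 other clusters of most similar profile were found by the root mean square difference of the values over the 12 arrays, each profile centred on its mean. The likest to *Cx3cr1* were *P2ry13* (0.36), *Siglech* (0.51) and *Fcrls* (0.61), all genes of the microglia list. *Siglech* is also in the list of dendritic cell markers. The likest to *Cxcr5* were *Psg18*, *Pax5* and *Cr2* (0.32 each), of which *Pax5* and *Cr2* are in the B cell list. Those of *Ccr7* were *Gcsam* (0.18), *Fcrla* (0.18) and *Ifi209* (0.19), of which *Fcrla* is in the B cell list. The T cell gene *Cd8b1* and the lymphocyte gene *Slamf1* were the likest pair for both *Ccr6* (0.20 and 0.23) and *Cxcr4* (0.32 and 0.33). *Ccr1* lay nearest to *Cxcr6* (0.19) and *Ccr9* to *Cd96* (0.20). *Ccr2* and *Ccr10* spanned 0.92 and 1.26 and were left out. The points share tissue and lymphoid content, so these are descriptions without a test.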

How the data were processed

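Total RNA of 12 samples was hybridised to Affymetrix Mouse Gene ST arrays. The authors made the deposited log2 values by RMA, which corrects background, quantile-normalizes the arrays and summarises probes, with no version given in the sources used here. Values ran from 0.50 to 12.99 with array medians from 4.29 to 4.46. Background correction and normalization across both tissues compress low signals and tie each value to the other arrays. Symbols came from the platform annotation. The 1881 clusters with several symbols and 12457 without one were left out, and no filter on signal was used. Arrays of 1 tissue correlated across clusters with r from 0.979 to 0.993.

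Genotypes were compared within each tissue with lmFit and eBayes of limma 3.58.1 (R 4.3.3) without a covariate. A fit of group means over the 12 arrays gave the tissue comparisons and the difference of genotype effects. Benjamini-Hochberg adjustment ran over 21218 clusters, and a cluster was called at an adjusted p under 0.05 with no fold limit. With 3 arrays against 3, an exact two-sided permutation test cannot give a p under 0.1, and the number of arrays limits the precision. The fits were tested on simulated data.

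The members and gene lists were chosen with earlier results of these data known. Named are the 9 receptors, *Csf1r*, *Ms4a1*, *Xist* and *Eif2s3y* as checks, listed ligands and receptors, and the 3 clusters of most similar profile. Genes of the lists outside these were named after their values were seen. Alternatives varied the moderation, the normalization, the clusters tested, the covariates (sex, code number), the weights and the arrays in the fit. Sequences are from RefSeq (GRCm38.p6). No build of the array annotation is named, so overlaps of genes are those of RefSeq.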

Additional observations from a re-analysis of the deposited data

Results flagged for a closer look

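*Cx3cr1* differed between the tissues in its genotype effect: the difference of the log2 differences, hippocampus minus ileum, was -3.10, by a limma test of that difference itself (adjusted p = 0.0107). It was lower in all 3 FIRE -/- hippocampus arrays than in any FIRE +/+ hippocampus array, while the ileum arrays of the genotypes overlapped. Groups of 3 arrays are too small to test if a single array stands apart, but arrays were left out in turn. The call was lost without hippocampus FIRE -/- replicate 2, the array with the doubtful sex label (limma adjusted p = 0.0503). It was also lost without moderation.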

How the results depend on the processing

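Counts of called receptors stayed within 1.5 times of those reported in 80 of 82 recomputations over the 5 comparisons. The exceptions concern the difference of genotype effects, where the count became 0 without moderation and ranged from 0 to 1 with 1 array left out. The call of *Cx3cr1* in the hippocampus held in all 16 alternatives run, with 1 array left out at -3.64 to -3.37. *Ccr2* between tissues passed the threshold in 10 alternatives, and *Ccr10* in FIRE +/+ mice lost it in 4.

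Signs turned only for differences that were not called. In the hippocampus *Ccr7* was at 0.01 after a second quantile normalization and 0.06 with array weights, and *Ccr6* at 0.02 with sex as a covariate. Without both ileum arrays with *Ms4a1* above 6, *Cx3cr1*, *Ccr2* and *Ccr10* in the ileum were at 0.07, 0.07 and 0.16, and between tissues *Cxcr4* was at 0.19 in FIRE -/- and 0.28 in FIRE +/+ mice and *Ccr6* at 0.12 in FIRE +/+ mice. With 1 array left out, hippocampus differences ran from -0.16 to 0.04 for *Ccr2*, -0.15 to 0.09 for *Ccr6* and -0.20 to 0.14 for *Ccr7*. Ileum differences ran from -0.32 to 0.04 for *Ccr2*, -0.34 to 1.14 for *Ccr6*, -0.69 to 1.23 for *Ccr7*, -0.12 to 0.61 for *Ccr9*, -0.62 to 1.20 for *Cxcr4*, -1.42 to 1.01 for *Cxcr5* and -0.30 to 0.11 for *Ccr10*. Between tissues *Cxcr4* ran from -1.34 to 0.19 in FIRE -/- and from -1.08 to 0.28 in FIRE +/+ mice, and *Ccr6* from -1.05 to 0.12 in FIRE +/+ mice. The cause was not tested.

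The filter on dim clusters left 2 of the receptors in the hippocampus fit and 5 in the others, so it gave no value for the rest. The clusters called in the hippocampus numbered 25 without moderation, 34 among the 4 arrays with 07 and 41 in a fit of all 12 arrays, against 95, and in the difference of genotype effects 8 without moderation and 34 with array weights, against 19. Leaving out both lymphoid-rich arrays gave 65 there. A cluster of second highest mean gave no value, since each receptor has 1 cluster. No paired analysis was possible because the labels give no replicate numbers shared between groups.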
